A study of Mus musculus with 4 samples.

Results

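Adrenergic stimulation of mammary basal cell colonies was examined by comparing the RNA of colonies grown with salbutamol and phenylephrine (SP) with the RNA of control colonies. The comparison took the 2 colony libraries of the 4 libraries in the series, which also holds basal cells sorted from control mice and from mice treated with 6-OHDA, a neurotoxin that destroys sympathetic nerve endings. Genes were joined by their NCBI Gene number, and 11849 of 17630 genes had a mean of at least 1 FPKM over both colony libraries and were compared. All 4 libraries are labelled as wild-type (WT) primary mammary basal cells. Salbutamol plus phenylephrine is the labelled treatment of the SP library, and the label of the control library gives no treatment. The titles of the colony libraries carry the numbers 0 and 200 without a unit, so no dose is given here. According to the methods of the study, sorted basal cells were embedded in Matrigel, an extract rich in laminin and collagen IV, and fed a defined medium with epidermal growth factor, insulin, transferrin and selenium. Colonies of both groups therefore grew in added growth factor, outside the fat pad and without nerves. Each library pools the RNA of many colonies of sorted cells, so it shows neither single colonies nor single cell types. The strain and age of the mice, and whether cells of several mice were pooled, are not given for these libraries in the sources used here.

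Norepinephrine from sympathetic nerves acts on adrenergic receptors at the cell surface. Salbutamol is a β-adrenergic agonist, and β receptors couple to the Gs protein, adenylyl cyclase and cyclic AMP and, through protein kinase A, to the transcription factor CREB. Phenylephrine selectively activates α1 receptors, which couple to Gq, phospholipase C, calcium and protein kinase C. In the mammary gland, basal cells form the outer layer of the duct, contract in response to oxytocin and include cells that can regenerate the gland after transplantation.

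The deposited values are FPKM, fragments scaled by gene length and library size, and they summed to 577631 in control colonies and 588202 in SP colonies. In control colonies 15934 genes had a value above 0, and in SP colonies 15756. The files used hold no read counts. Matching low values of genes that have only 1 annotated transcript to whole fragments gave about 17.7 fragments for 1 FPKM on 1 kilobase in control colonies and 17.9 in SP colonies, a rough estimate that puts both libraries at a like depth. With 1 library a group there is no replicate check. Every difference below is one between 2 libraries, is given as log2(FPKM + 1) in SP colonies minus control colonies, and was called higher or lower when over 0.3 in size. This scale understates the differences of genes at low levels.

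Before any contrast, the cell type label was checked against marker genes. Basal markers were present in both colony libraries. The basal keratin gene Krt14 was listed at 3298 FPKM in control colonies and 6919.9 FPKM in SP colonies, and its partner Krt5 at 1888 and 4579 FPKM. Trp63, the master transcription factor of basal epithelium, was listed at 46.5 and 80.9 FPKM, and Acta2, the smooth muscle actin of myoepithelial cells, at 402 and 722 FPKM. The labelled cell type thus had its defining markers, but luminal markers were present as well. Krt8 was listed at 698 FPKM in control and 683 FPKM in SP colonies, Krt18 at 503 and 504 FPKM, and Elf5, a regulator of the luminal progenitor lineage, at 22.5 and 18.1 FPKM. Elf5 was listed at 0.63 FPKM in sorted control basal cells. Several defining endothelial and leukocyte markers were at or near 0 in the colonies, with Cdh5 (VE-cadherin) at 0.12 FPKM in both, Ptprc (CD45) and Cd3e listed at 0 in both, and Itgam at 0 and 0.01 FPKM. In sorted control basal cells Cdh5 was listed at 77.9 FPKM.

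**Figure D1:**
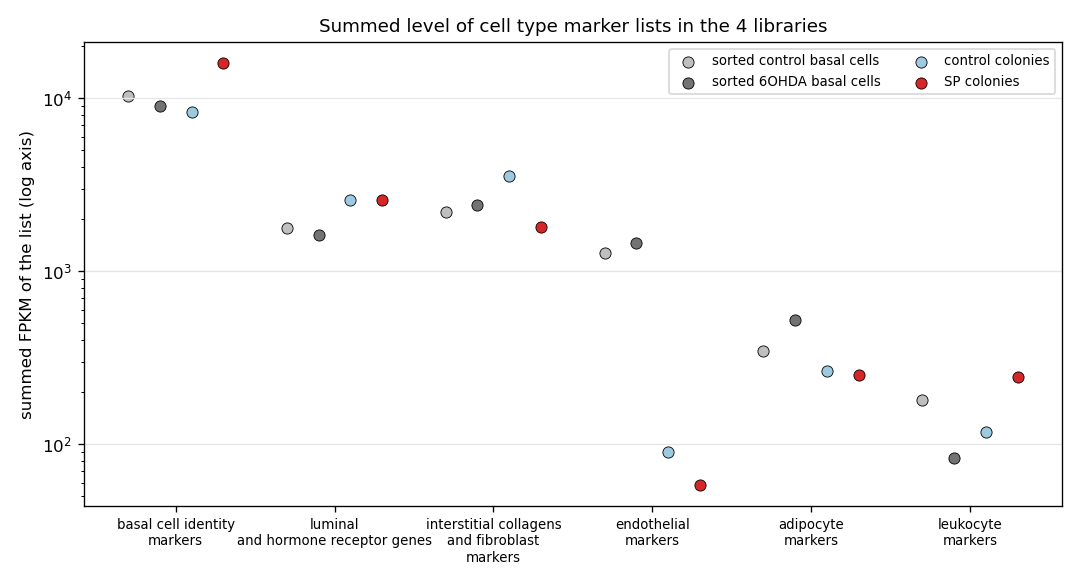
Summed FPKM (log axis) of 6 lists of cell type markers in each of the 4 libraries, 1 point a library. The basal list sums to 8329.9 FPKM in control colonies and 15883 FPKM in SP colonies, and the endothelial list to 90.0 and 57.9 FPKM. Fabp4 makes up 34.4 and 1.05 FPKM of these endothelial sums.

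By the threshold of 0.3, 1385 genes (11.7%) were higher in SP colonies, 2351 (19.8%) were lower, and the median over all genes tested was -0.07. By a threshold of 1, 237 genes (2.0%) were higher and 158 genes (1.33%) were lower. Lower genes thus outnumbered higher genes among small differences, and higher genes outnumbered lower genes among large ones. The split at 0.3 depended on the scaling. Of the genes past 0.3, 37.1% were higher with the values as deposited and 50.0% after the median ratio of the tested genes was set to 1, where 1749 genes were higher and 1752 were lower. Under quantile normalization the share was 47.2%, and with values rescaled to the same sum it was 32.9%. At a threshold of 1 the shares were 60.0%, 66.5%, 65.2% and 57.2% in the same order. No gene past 0.3 as deposited changed direction under any of the 4 scalings tried. Only quantile normalization could have turned such a gene. The other scalings multiply each library by a single factor and moved the median by at most 0.07 in size. Of the genes compared, 118 were below 1 FPKM in control colonies and 177 in SP colonies, and such genes passed the filter only through the library in which they were high. They include 48 of the genes higher by 1 and 27 of those lower by 1. At its edge, Pcdhb12 (1.38 and 0.62 FPKM in control and SP colonies) was just inside the filter and Gm5451 (1.36 and 0.63 FPKM) just outside.

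Genes with a mean of at least 5 FPKM were ranked by their difference, and the 20 at each end are named here. At the upper end stood genes known as hypoxia-induced (Ndufa4l2, Slc16a3, Bnip3, Car9, Mgarp), keratins of activated or stratified epidermis (Krt6a, Krt6b, Krt16), products of differentiating keratinocytes (Krtdap, Klk10, Sprr1b), and defense genes (Defb14, Saa2, Plac8, Il24). The others were Tubb3, Fxyd4, Prelid2, 2610528A11Rik and Cstdc5. At the lower end stood matrix genes (Col8a2, Col1a2, Col9a2, Emid1, Cnmd, Chadl), the fatty acid carrier Fabp4, the Wnt antagonist Sfrp2, the retinoic acid-degrading enzyme Cyp26a1, the adhesion molecule Vcam1, the imprinted gene Mest, and the histone genes H2bc8 and H4bc24. The remaining members were Erg, Saa3, Mme, Pgm5, Abat, Fam180a and Kazald1. Over all 11849 genes compared, differences past 2 were more frequent upward, with 54 genes higher and 13 lower.

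**Figure D2:**
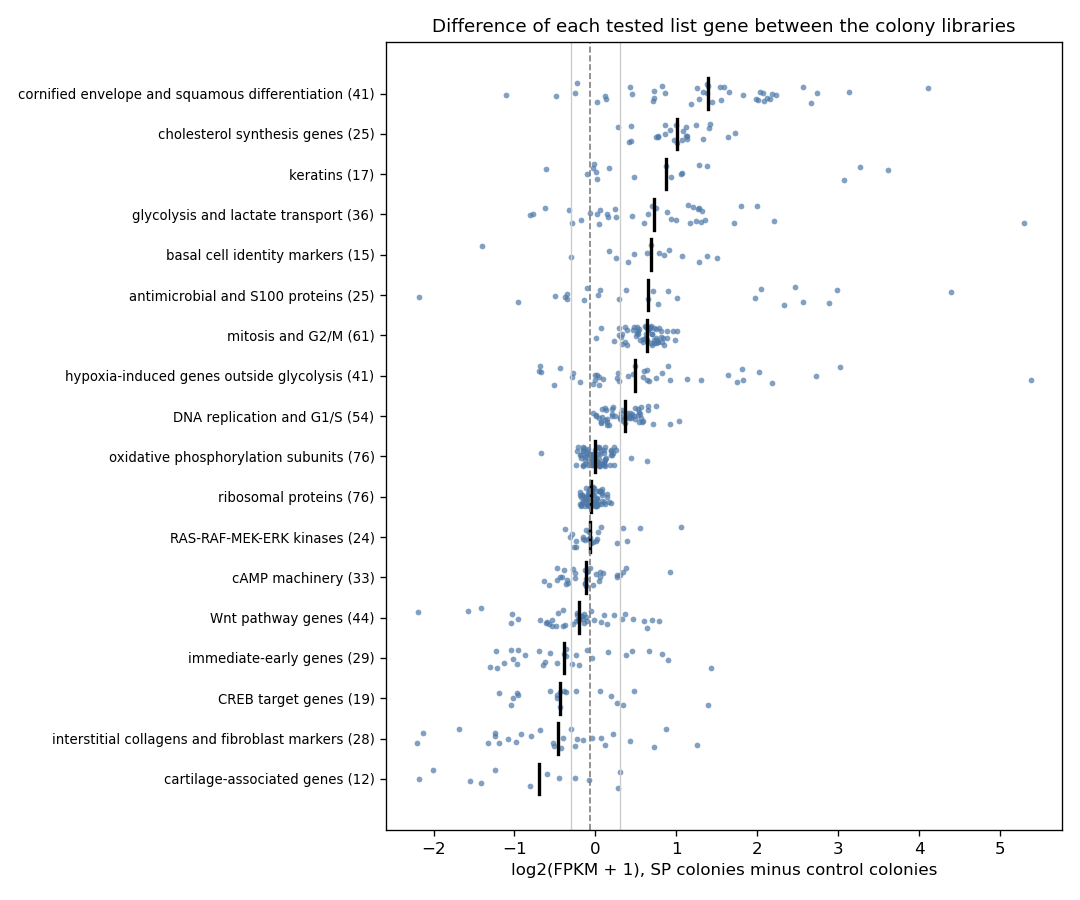
Difference in log2(FPKM + 1), SP colonies minus control colonies, for each tested gene (points) of 18 gene lists, with the list median as a black bar, the median of all genes tested as a dashed line and 0.3 in either direction as grey lines. Squamous, sterol, keratin and glycolysis lists lie to the right, ribosomal and respiratory chain lists lie around the dashed line, and matrix, CREB and immediate-early lists lie to the left.

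The α1 receptors on which phenylephrine acts were expressed at low levels. Adra1d, the α1 receptor gene with the highest level in the colonies, was listed at 1.49 FPKM in control colonies and 0.67 FPKM in SP colonies (-0.58, and within 0.3 with a pseudocount of 5). Adra1a was listed at 0.03 and 0.02 FPKM and Adra1b at 0 in both colony libraries. The α2 receptor gene Adra2a (1.07 and 0.55 FPKM) and the β1 receptor gene Adrb1 (0.41 and 0.47 FPKM) did not reach the filter. Adra2b was listed at 0 in both libraries, and Adra2c and Adrb3 were at or below 0.05 FPKM. These transcripts say nothing of receptor protein or activity.

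Downstream of Gs-coupled receptors, the list of cAMP machinery had more lower than higher genes, as did all genes compared. Of 33 tested genes, 4 were higher and 10 lower, beside 11.7% and 19.8% of all genes, with a median of -0.12 against -0.07 for all genes. Gnas, which encodes the Gs α subunit, was listed at 299.6 FPKM in control and 286 FPKM in SP colonies. Gnai1, an inhibitory G protein subunit, was higher in SP colonies (7.64 to 15.3 FPKM, 0.92), whereas the cAMP phosphodiesterase gene Pde4a was lower (2.68 to 1.36, -0.64). The receptor kinase genes Grk3 (-0.48) and Grk5 (-0.47) and the regulatory subunit gene Prkar1b (-0.57) were also lower. With a pseudocount of 5 these differences of Pde4a, Grk3, Grk5 and Prkar1b were within 0.3.

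Genes known as CREB targets were mostly lower in SP colonies. Of 19 tested, 12 were lower and 3 higher by 0.3, with a median of -0.44 against -0.07 for all genes. Fos, the most abundant of them and an immediate-early transcription factor, was listed at 347 FPKM in control and 171 FPKM in SP colonies (-1.01). The stress factor Atf3 went from 35.3 to 16.6 FPKM (-1.04), the GTP-binding protein gene Gem from 3.95 to 1.17 (-1.19), and the MAP kinase phosphatase gene Dusp1 from 135 to 68.1 (-0.97). Areg, which encodes the EGF receptor ligand amphiregulin, was the exception with a difference over 1 upward, at 16.9 and 46.2 FPKM (1.4). On the α1 side, the list of Gq and calcium machinery had 2 genes higher and 6 lower of 35, with a median of -0.06. Among all genes compared, 11.7% were higher and 19.8% lower. The Gq family gene Gna15 (0.61) was higher, and the phospholipase gene Plcb1 (-0.52), the calcium channel gene Itpr1 (-0.46) and the kinase gene Prkd1 (-0.53) were lower, but within 0.3 with a pseudocount of 5.

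Immediate-early genes, which are transcribed within minutes of many stimuli, were lower as a group. Of 29 tested, 17 were lower and 6 higher, with a median of -0.39. Several are also on the CREB list, and Ccn1 and Ccn2 are also on the list of YAP targets. Ccn1, a matricellular protein gene, was listed at 412 and 166 FPKM in control and SP colonies (-1.31), Ccn2 at 241 and 102 (-1.23), the antiproliferative gene Btg2 at 92.6 and 41.9 (-1.13) and Klf2 at 4.07 and 1.19 (-1.21). Junb (-0.69), Egr2 (-0.86) and Jun (-0.39) were lower too. Fosl1 (1.27 to 5.14 FPKM, 1.44) and Myc (13.3 to 21.6 FPKM, 0.67) were higher. In sorted control basal cells Atf3 (394 FPKM), Gem (368 FPKM) and Fosl1 (240.3 FPKM) were above both colony libraries. So were Fos (809 FPKM), Junb (801 FPKM), Myc (204 FPKM), Egr2 (124 FPKM) and Klf2 (11.9 FPKM). Ccn1 (254 FPKM), Ccn2 (193 FPKM), Btg2 (54.3 FPKM) and Jun (279 FPKM) lay between the colony libraries. The immediate-early list summed to 7661 FPKM in sorted control basal cells, 3057 in control colonies and 1946 in SP colonies. The median of the YAP list was -0.15 over 21 genes, with 4 higher and 6 lower, and that of the circadian clock list -0.26 over 20 genes, with 0 higher and 9 lower. Among clock genes, Per1 went from 13.9 to 9.07 FPKM (-0.56).

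The kinases of the RAS-ERK cascade differed little. Of 24 tested genes, 4 were higher and 2 lower, a smaller share in total than among all genes, and the median was -0.07. Rras2, a RAS-related GTPase gene, had the largest difference (25.5 to 54.5 FPKM, 1.06), and Hras (0.39), Nras (0.34) and Map2k1 (0.55), which encodes the kinase MEK1, were also higher. The other MEK gene, Map2k2, was listed at 34.4 and 34.5 FPKM and the ERK1 gene Mapk3 at 108 and 103 FPKM. The RAS-inhibiting gene Rasa1 was lower (-0.37). Genes of ERK feedback and output had 5 higher and 4 lower of 21 (median -0.07), with 2 higher by 1, Il1a (1.81) and Fosl1 (1.44), and 0 lower by 1. Ccnd1, the cyclin D1 gene, went from 171 to 288 FPKM (0.75), and Spred1, an inhibitor of the cascade, from 58.7 to 33.7 FPKM (-0.78).

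Several ligand genes of the EGF receptor family were higher, while the receptor genes stayed within 0.3. Epgn (epigen) was listed at 7.21 FPKM in control and 31.8 FPKM in SP colonies (2.0), Ereg (epiregulin) at 4.04 and 9.13 (1.01), Hbegf at 7.31 and 13.9 (0.84), and Nrg1 (neuregulin), a ligand of ErbB receptors that acts on neighboring luminal cells, at 4.60 and 15.0 (1.52). With Areg, these were the 5 genes of the list past 0.3 upward. Erbb3 was listed at 25.2 and 20.4 FPKM (-0.29), with Egfr at -0.05 and Erbb2 at -0.17. The feedback inhibitor gene Errfi1 (-0.47), the receptor-restraining genes Lrig1 (-0.81) and Lrig3 (-0.62) and the ligand gene Nrg2 (-0.43) were lower. Egfr, Erbb2, Lrig1, Lrig3 and Nrg2 were named after their values were seen. In all, 5 of 16 tested genes were higher and 4 lower, with a median of 0.05. Other growth factor genes went both ways. Fgfbp1, a carrier that releases FGFs from the matrix, went from 23.8 to 88.8 FPKM (1.86) and the HGF receptor gene Met from 16.3 to 28.6 (0.77), whereas Pdgfc (-0.93), Fgfr1 (-0.69) and Fgf21 (-0.79, within 0.3 with a pseudocount of 5) were lower. That list had 5 higher and 9 lower of 19, with a median of -0.14.

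IGF-binding proteins, which hold or release insulin-like growth factors, divided into opposite directions. Igfbp5 was listed at 1142 FPKM in control colonies and 431 FPKM in SP colonies (-1.40), Igfbp3 at 741 and 323 (-1.20) and Igfbp7 at 252 and 125 (-1.01). Igfbp2 (68.6 to 155 FPKM, 1.16) and Igfbp4 (10.8 to 26.9 FPKM, 1.24) were higher. Over the 13 tested genes of the list the median was -0.18, with 3 higher and 5 lower.

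Large differences fell on genes of low oxygen and glucose use. Hypoxia-induced genes are transcribed through HIF factors, which prolyl hydroxylases mark for degradation when oxygen is present. Ndufa4l2, a mitochondrial protein gene related to a cytochrome oxidase subunit, was listed at 0.72 FPKM in control and 71.0 FPKM in SP colonies (5.39). The mitophagy receptor gene Bnip3 was listed at 12.9 and 111 FPKM (3.02), and the carbonic anhydrase gene Car9 at 2.93 and 25.1 (2.73). Fam162a (97.0 to 446 FPKM, 2.19), the adenylate kinase gene Ak4 (2.90 to 14.8, 2.02) and the angiogenic factor gene Vegfa (11.2 to 42.0, 1.82) were higher in SP colonies as well. Not every member followed. Of 41 tested genes outside glycolysis, 23 were higher by 0.3 and 5 lower, 11 were higher by 1 and 0 lower, and the median was 0.49, or 0.32 with a pseudocount of 5. Lower were Bhlhe41 (-0.67) and, named after their values were seen, Lox (-0.69), Stc1 (-0.70), Stc2 (-0.44) and Angptl4 (-0.51), which encode secreted proteins. Bhlhe40 was listed at 54.1 and 55.8 FPKM, and the metallothionein gene Mt1, the second most abundant of the list after Mt2, differed by 0.28.

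Among the regulators of this pathway, Hif1a was listed at 36.8 FPKM in control and 70.8 FPKM in SP colonies (0.93). The prolyl hydroxylase genes Egln3 (3.92 to 16.5 FPKM, 1.83) and Egln1 (19.6 to 35.7, 0.83), themselves known as HIF targets, were higher, as was the HIF partner gene Arnt (0.33, within 0.3 with a pseudocount of 5). Epas1, which encodes HIF-2α, was listed at 17.0 and 13.9 FPKM (-0.28), Vhl at 12.6 and 10.1, Egln2 at 27.1 and 28.2, Hif1an at 7.67 and 8.39 and Ep300 at 17.4 and 15.6 FPKM. None of these reached 0.3 in size. Hif3a was listed at 0 in both libraries and Arnt2 at 0.55 and 0.53 FPKM. The list therefore had 4 of 9 tested genes higher and 0 lower, with a median of 0.12. HIF proteins are controlled mainly by degradation, which these values do not measure.

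Many glycolysis genes were higher, from the glucose transporter to lactate export. Slc2a1, the transporter GLUT1, went from 55.6 to 124 FPKM (1.15, named after its values were seen). Pgk1, phosphoglycerate kinase, was listed at 261 FPKM in control and 1207 FPKM in SP colonies (2.20), the phosphofructokinase gene Pfkl at 22.4 and 91.9 (1.99), and Tpi1 at 219.7 and 769 (1.80). Ldha, which makes lactate, went from 341 to 1121 FPKM (1.71), and Slc16a3, the lactate exporter MCT4, from 0.55 to 59.7 FPKM (5.29). Gapdh, often used as a reference gene, was itself 2.41 times as high in SP colonies (1316 and 3177 FPKM), and Pkm 2.37 times (738 and 1749.8 FPKM). Neither could serve as a level reference between these libraries. Of 36 tested genes, 22 were higher and 4 lower by 0.3, 14 and 0 by 1, with a median of 0.72. The lower genes, named after their values were seen, were Pdk2 (-0.77) and Pdk4 (-0.81), kinases that hold pyruvate back from mitochondria, the muscle phosphofructokinase gene Pfkm (-0.33, within 0.3 under median-ratio scaling) and the transporter gene Slc16a7 (-0.62). Pdk1, a relative of Pdk2 known as hypoxia-induced, was higher (1.31), and it too was named after its values were seen. The list summed to 5152 FPKM in control and 12473 FPKM in SP colonies. Eno1 and its near-identical copy Eno1b share reads, so their separate values (538 to 1029.7 and 373 to 690.3 FPKM) are uncertain, and both were named after their values were seen.

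Mitochondrial energy genes did not differ in this way. Of 76 subunits of oxidative phosphorylation, 2 were higher and 1 lower, and their median was -0.01. The exceptions were Ndufv3 (67.2 to 105 FPKM, 0.64), Cycs (0.45) and Cox4i2 (6.84 to 3.91, -0.68). Ndufa4, the respiratory chain relative of Ndufa4l2, was listed at 747 and 639 FPKM (-0.23). In the tricarboxylic acid cycle 0 of 21 genes were higher and 1, Idh3g (-0.35), was lower (median -0.01), and it was within 0.3 under median-ratio scaling. Ribosomal protein genes gave 0 higher and 0 lower of 76, with differences from -0.19 to 0.19 and a median of -0.05. Whether these medians are above or below 0 depended on the scaling, as they lay between -0.07 and 0.07 for the respiratory chain and between -0.08 and 0.02 for ribosomal proteins over all settings tried.

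The promoters of these genes were searched for the core letters of the hypoxia response element, ACGTG and GCGTG, on both strands, because so many members were higher together. The RefSeq promoter table for GRCm38.p6 held 9471 of the genes compared, and the search covered the 250 bases before each start. ACGTG was present in 22 of 31 hypoxia-induced genes with a promoter (71.0%) and in 16 of 33 glycolysis genes (48.5%), compared with 25.3% of all genes compared and 18.5% of all genes in the table. GCGTG was present in 80.6% and 60.6% of these lists, in 51.0% of the genes compared and in 30.9% of all genes. In the CREB, immediate-early, cholesterol and cornified lists ACGTG was present in 33.3%, 38.1%, 23.5% and 15.6% of genes, and GCGTG in 73.3%, 52.4%, 64.7% and 15.6%. The hypoxia list was drawn up from genes known to be induced by hypoxia, so its share describes how it was chosen. The glycolysis list also holds genes known as hypoxia-induced, such as Slc16a3 and Pdk1, so this applies to it in part. The last 150 bases before the first transcript start of the promoter table are printed for 5 genes with a difference over 1, chosen after their values were seen, because they show how close to the start the core letters lie. ACGTG on either strand is in capitals. For Slc16a3 and Ldha this start lies inside the gene as annotated, downstream of its outermost end. Where CACGTG appears, both strands match in the same place. Slc16a3 is at chr11:120948917-120949066 on the plus strand, Pgk1 at chrX:106186950-106187099 (plus), Ldha at chr7:46845654-46845803 (plus), Car9 at chr4:43506876-43507025 (plus) and Bnip3 at chr7:138909507-138909656 (minus).
Slc16a3: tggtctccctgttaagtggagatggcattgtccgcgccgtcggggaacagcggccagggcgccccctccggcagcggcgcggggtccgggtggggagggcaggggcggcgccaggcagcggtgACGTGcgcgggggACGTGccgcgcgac
Pgk1: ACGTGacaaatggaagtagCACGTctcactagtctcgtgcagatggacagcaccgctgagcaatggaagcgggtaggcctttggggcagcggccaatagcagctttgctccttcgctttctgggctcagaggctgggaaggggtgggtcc
Ldha: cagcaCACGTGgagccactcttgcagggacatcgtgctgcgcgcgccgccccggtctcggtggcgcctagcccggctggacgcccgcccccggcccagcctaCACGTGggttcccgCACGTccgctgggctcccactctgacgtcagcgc
Car9: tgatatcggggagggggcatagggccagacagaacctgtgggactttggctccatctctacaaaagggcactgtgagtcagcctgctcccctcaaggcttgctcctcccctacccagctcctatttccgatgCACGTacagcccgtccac
Bnip3: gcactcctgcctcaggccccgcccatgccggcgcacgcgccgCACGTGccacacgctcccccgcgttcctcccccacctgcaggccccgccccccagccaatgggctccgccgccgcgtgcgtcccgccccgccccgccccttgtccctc

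The cAMP response element was searched for in the same windows as TGACGTCA in full and TGACG as the shorter form, which the full element contains on both strands and which can overlap ACGTG in the letters TGACGTG. The short form was present in 12 of 15 CREB list genes with a promoter (80.0%), in 14 of 21 immediate-early genes (66.7%) and in 30.7% of the genes compared, with 19.8% over all genes of the table. In the hypoxia, glycolysis, cholesterol and cornified lists it was present in 22.6%, 18.2%, 41.2% and 18.8%. The full form was present in 2 CREB list genes, in 3.06% of the genes compared and in 1.77% of all genes. The stretch of Ldha printed above also holds it, in small letters. The CREB list was drawn up from genes known as CREB targets, and several immediate-early genes are also on it. The share of the CREB list, and in part that of the immediate-early list, therefore describes how they were chosen. Genes that held either form of the element had differences in both directions. Areg, higher in SP colonies, holds the full element (chr5:91139449-91139598, plus strand), and Nr4a1, listed at 74.6 FPKM in control and 37.9 FPKM in SP colonies (-0.96, named after its values were seen), holds the short form at 2 places (chr15:101266696-101266845, plus strand, before a start inside the annotated gene). Both are shown because they differ in opposite directions, and were chosen after their values were seen. Capitals mark the full element in Areg and the short form on either strand in Nr4a1, and a match shows letters, not binding.
Areg: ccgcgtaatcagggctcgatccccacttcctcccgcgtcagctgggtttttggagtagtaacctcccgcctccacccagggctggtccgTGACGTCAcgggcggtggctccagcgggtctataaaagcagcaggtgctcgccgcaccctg
Nr4a1: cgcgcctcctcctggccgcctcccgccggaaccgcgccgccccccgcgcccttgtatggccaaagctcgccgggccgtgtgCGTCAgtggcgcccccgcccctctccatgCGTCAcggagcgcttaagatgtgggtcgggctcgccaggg

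Cholesterol synthesis genes were higher almost without exception. All but 1 of 25 genes, 24, were higher by 0.3 and 13 by 1, none was lower, and the median was 1.01. Hmgcs1, which makes the substrate of the rate-limiting reductase, was listed at 71.1 FPKM in control and 192 FPKM in SP colonies (1.42), Idi1 at 44.7 and 141 (1.64), and the sterol demethylases Msmo1 at 63.7 and 169.9 (1.4) and Cyp51 at 28.1 and 72.0 (1.33). Fdps, the most abundant member, went from 128 to 244 FPKM (0.92). The list summed to 858 FPKM in control and 1802 FPKM in SP colonies. Fatty acid genes were not uniform, with 9 of 25 higher, 4 lower and a median of 0.05. Fabp5, the fatty acid carrier of stratified epithelium, went from 187 to 871 FPKM (2.21), and the synthesis genes Acss2 (0.94), Fasn (0.76) and Scd2 (0.66) were higher, whereas Dgat2 (-0.55) was lower.

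Keratins of the basal layer and of activated epidermis were higher, and luminal keratins were level. Krt17 was listed at 725 FPKM in control and 1882 FPKM in SP colonies (1.38), beside 2.10 times for Krt14 and 2.43 times for Krt5. Krt6a, a keratin of wounded and hyperproliferative epidermis, was listed at 260.2 and 2198 FPKM (3.07) and its partner Krt16 at 44.1 and 434 (3.27). Krt6b (16.5 and 214 FPKM) is a close copy of Krt6a, and its share of their reads is uncertain. Krt8 (-0.03) and Krt18 (0.00), the pair of simple epithelium, lay near 0, and the sign of such values changes with the scaling. In all 10 of 17 tested keratins were higher and 1 lower, with 7 higher by over 1 and a median of 0.88. Without the filter the median was 0.17, and with a pseudocount of 5 it was 0.46. The lower keratin was Krt23 (-0.61, named after its values were seen). Keratin genes made up 1.36% of the summed FPKM in control and 3.04% in SP colonies, where no gene had a higher FPKM than Krt14. In control colonies Eef1a1, a translation factor gene, had the highest (7268 FPKM, named after its values were seen).

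The markers of basal identity as a list were higher, with 11 of 15 past 0.3 upward, 2 downward and a median of 0.69. Besides the genes above, Itgb4, an integrin of hemidesmosomes, went from 113 to 176 FPKM (0.64), its ligand chain gene Lama3 from 102 to 191 (0.91), and Col17a1 from 294 to 388 (0.40). Snai2 (12.04 to 20.01, 0.69), a transcription factor of basal cells, and Krt15 (68.2 to 95.5, 0.48) were higher. Cdh3 (0.17) and Itga6 (0.26) were within 0.3, and the oxytocin receptor gene Oxtr (10.2 to 8.07, -0.31) and Igfbp5 were lower. The calls of Oxtr and Col17a1 were lost under quantile normalization. That of Oxtr was also lost under median-ratio scaling and with a pseudocount of 5 (-0.22). In a bulk library, fewer cells of a type and less RNA per cell cannot be told apart, and this holds for every marker here. Contractile genes of the myoepithelial state were higher in 12 of 28 cases and lower in 3 (median 0.25), with Acta2 at 0.84, calponin Cnn1 at 1.0 (30.4 to 61.8 FPKM), myosin Myh11 at 0.88 (11.2 to 21.5 FPKM) and Csrp1 at 0.87. In sorted control basal cells Cnn1 was listed at 515 and Myh11 at 467 FPKM, well above both kinds of colony. Pgm5, an adhesion plaque protein gene, was the member with the largest difference downward (18.7 to 4.51 FPKM, -1.84).

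**Figure D3:**
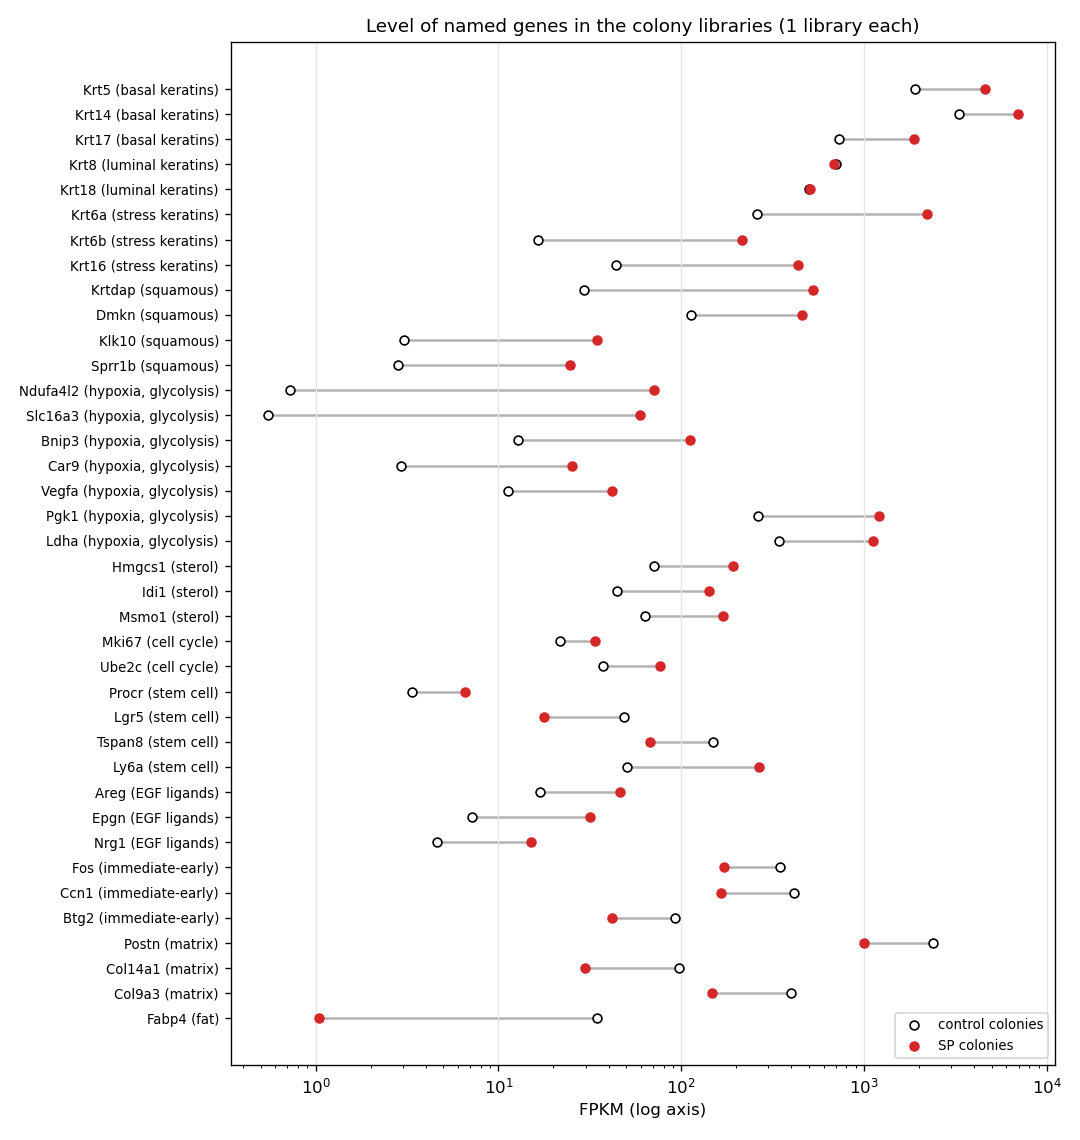
FPKM (log axis) of named genes in control colonies (open circles) and SP colonies (filled circles), 1 library each, with the gene group in brackets. Krt6a goes from 260.2 to 2198 FPKM and Fabp4 from 34.4 to 1.05 FPKM, while Krt8 is at 698 and 683 FPKM.

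Genes of the cornified envelope and squamous differentiation, which stratified epithelia such as epidermis express as their cells leave the basal layer, had a high median whose size depended on the processing. Of 67 genes in the files, 41 were compared, 34 were higher by 0.3 and 2 lower, 27 were higher by 1 and 1 lower, and the median was 1.39, which became 0.78 with a pseudocount of 5 and 0.72 without the filter. The lower genes were the late envelope gene Lce1g (-1.10) and the transcription factor gene Grhl1 (-0.49). Krtdap, a secreted keratinocyte product, was listed at 29.5 FPKM in control and 528 FPKM in SP colonies (4.11), Dmkn (dermokine) at 112 and 458 (2.02) and the kallikrein protease gene Klk10 at 3.04 and 34.6 (3.14). The envelope precursor gene Sprr1b (2.83 to 24.6, 2.74) and the desmosomal cadherin gene Dsg1a (1.33 to 9.37, 2.15) were higher as well. Sprr2a1 (0.10 to 5.96 FPKM) and Dsg1a have close copies in the genome that share reads with them, so their single values are uncertain. The terminal genes of the programme were near 0 in both libraries, with loricrin (Lor) at 0.54 and 0.18 FPKM, involucrin (Ivl) at 0.20 and 0.46 and filaggrin (Flg) at 0.06 and 0.19. These, Lce1g and Grhl1 were named after their values were seen. Ly6d, the most abundant member, was listed at 976 and 1059 FPKM (0.12).

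Among junction genes, differences went both ways and the larger ones were upward. The list had 14 genes higher and 6 lower of 38 tested, with a median of 0.15. Dsg3, a desmosomal cadherin of basal layers, was listed at 68.9 FPKM in control and 198 FPKM in SP colonies (1.51), Dsc3 at 40.7 and 82.1 (1.0), and the desmosome-associated gene Perp at 548 and 1028 (0.91). The connexin gene Gjb5 (1.35) and the claudin gene Cldn1 (23.1 to 48.8 FPKM, 1.05) were higher. In contrast, Cldn7 (82.9 to 52.6 FPKM, -0.65) and Cldn8 (8.65 to 4.25 FPKM, -0.88), both named after their values were seen, were lower. For the basement membrane and its receptors, 11 were higher and 10 lower of 37 (median -0.07). The collagen receptor gene Itga2 (6.34 to 16.9 FPKM, 1.28) was higher, and the collagen IV chain genes Col4a5 (-0.78) and Col4a6 (-1.0) lower.

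Defense genes were led by epithelial antimicrobial peptides. Defb14, a beta-defensin, was listed at 2.38 FPKM in control and 69.9 FPKM in SP colonies (4.39), and Defb1 at 0.69 and 9.04 (2.57). S100a8, a calcium-binding alarmin, was listed at 30.9 and 125 FPKM (1.98), and its partner S100a9 at 0 and 6.40 FPKM. The serum amyloid genes went both ways, with Saa1 (2.47) and Saa2 (2.98), close copies that share reads, higher and Saa3 (45.8 to 9.32 FPKM, -2.18) lower. Slpi, a protease inhibitor and the most abundant member in control colonies, was lower (3919.5 to 2024 FPKM, -0.95). Of 25 tested genes, 14 were higher and 6 lower, with a median of 0.65. The median is 0.29 when a mean of at least 5 FPKM is required.

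Cytokine genes of the epithelium were higher for Il24 (1.17 to 34.1 FPKM, 4.01), Il1a (9.01 to 34.2, 1.81) and Il19 (0.29 to 3.86, 1.91), and lower for the alarmin gene Il33 (78.6 to 49.9, -0.65) and the macrophage growth factor gene Csf1 (66.2 to 34.3, -0.93). This list had 8 of 18 higher, 4 lower and a median of 0.28. Chemokines had 2 of 14 higher and 6 lower (median -0.22). Cx3cl1 (122 to 55.0 FPKM, -1.14) and Cxcl14 (20.5 to 8.47, -1.18) were lower, and the neutrophil attractant gene Cxcl5 (46.2 to 71.8, 0.62) was higher. Interferon-stimulated genes were close to the background, with 3 of 37 higher, 8 lower and a median of -0.12. Complement genes had a median of -0.35 over 11, of which 6 were lower and 3 higher, with Clu (319 to 183 FPKM, -0.80) and C4b (-1.08) lower and C1s1 (0.88) higher. That median did not hold past 0.3, at -0.12 with a pseudocount of 5 and -0.095 at a mean of at least 5 FPKM.

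Most division genes were higher in both phases, fewer of them in G1/S than in mitosis. In the list of DNA replication and G1/S genes 32 of 54 were higher by 0.3, 22 were within 0.3 and 0 were lower. The median was 0.37, or 0.25 with a pseudocount of 5. Rrm2, a ribonucleotide reductase subunit, went from 23.9 to 46.4 FPKM (0.93), and the G1 cyclin genes Ccne1 (0.65) and Ccne2 (0.75) were higher. Mitosis genes had 56 of 61 higher and 0 lower, with a median of 0.64. The proliferation marker gene Mki67 was listed at 21.8 and 33.9 FPKM (0.62). The kinase gene Aurka went from 7.5 to 15.5 FPKM (0.96), its activator Tpx2 from 14.8 to 28.1 (0.88) and the centromere histone gene Cenpa from 15.95 to 30.2 (0.88). Histone genes, most of whose transcripts accompany DNA synthesis and lack a poly(A) tail, did not go with them. Of 17 histone genes tested, 11 were lower and 3 higher, with a median of -0.38, including H1f2 (395 to 189 FPKM, -1.06) and H2bc8 (52.0 to 14.1, -1.82). Many of these genes have close copies, so their single values are uncertain. The replication-independent gene H3f3b, the most abundant member, was also lower (1359 to 956, -0.51). Among cell cycle regulators, Ccnd1 (0.75) and Ccnd2 (51.8 to 77.3, 0.57) were higher and the CDK inhibitor gene Cdkn2b (55.2 to 41.2, -0.41) lower, and 4 of 17 were higher and 2 lower (median 0.10).

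Stem cell markers showed no common direction. Of 26 tested, 6 were higher and 8 lower, and the median was 0.08. By a threshold of 1, 2 were higher and 3 lower. Ly6a (Sca-1), which in the mammary gland marks mainly luminal and some progenitor cells, had the largest difference (50.4 to 266 FPKM, 2.38). The largest downward was that of Lgr5 (48.7 to 17.7 FPKM, -1.41). Cd24a (355 and 359 FPKM) and Itgb1 (368 and 424 FPKM), the antigens by which basal cells were sorted, were within 0.3. Procr, the surface receptor for protein C, was higher at a low level (3.35 to 6.55 FPKM, 0.80), compared with 253 FPKM in sorted control basal cells. The other genes of the protein C pathway divided, with thrombomodulin (Thbd, 0.27 to 2.48, 1.45) and tissue factor (F3, 18.9 to 30.6, 0.66) higher and protein S (Pros1, 35.0 to 24.7, -0.48) and the thrombin receptor gene F2r (9.76 to 6.24, -0.57) lower. F2rl1 (-0.07) and Tfpi (0.15) were within 0.3, and the median over 7 tested genes was 0.15, without a settled direction as it was -0.07 at a mean of at least 5 FPKM. The remaining genes of that list were below the filter, with Tfpi2 at 0.82 and 0.30 FPKM, S1pr1 at 0.04 in both, F2rl2 at 0.15 in both, F2rl3 at 0.28 in both, Proc at 0 and 0.16, and Serpinc1 at 0 and 0.04.

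Signalling lists were set beside the 11.7% higher, 19.8% lower and median of -0.07 of all genes. The Wnt list had 7 of 44 genes higher and 17 lower by 0.3, 0 and 5 by 1, with a median of -0.21. Its largest differences, all downward, were those of Sfrp2 (29.0 to 5.56 FPKM, -2.19), the receptor gene Fzd9 (7.60 to 1.88 FPKM, -1.58), Lgr5 (-1.41), Lgr6 (-1.04) and Wnt5b (21.1 to 9.83, -1.03). Ctnnb1, the β-catenin gene, was higher (373 to 468, 0.33), but within 0.3 under quantile normalization. BMP and TGF-β genes had 1 of 32 higher and 11 lower (median -0.22), with the BMP target Id3 (31.5 to 13.9, -1.12), the latent TGF-β-binding gene Ltbp2 (31.7 to 9.41, -1.65) and the receptor gene Acvr2a (-1.0) lower. Notch genes were at the background, with 2 of 19 higher and 4 lower and a median of -0.10. Hey1, a Notch target, was lower (-0.72). The higher genes were Dlk2, a Notch-modulating membrane protein gene and the list's largest difference (1.25 to 3.87, 1.11), and the ligand gene Jag1 (0.36). Among Hedgehog genes, 2 of 10 were higher and 4 lower (median -0.26, or -0.06 without the filter), with Gli1 (-0.72) and Boc (-0.85) lower. Gli2 was higher at a low level (0.39 to 1.72, 0.97), as was Pthlh, an epithelial signal to the mammary mesenchyme (9.98 to 24.9, 1.24). Axon guidance genes had 4 of 44 higher and 16 lower (median -0.12), led by Sema6a (-0.96).

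The luminal list held more lower than higher genes, but its larger differences were mostly upward, and both also hold for all genes compared. Of 30 tested genes, 4 were higher and 13 lower by 0.3, beside 11.7% and 19.8% of all genes. By a threshold of 1, 3 were higher and 1 lower, beside 2.0% and 1.33% of all genes. The median was -0.17, against -0.07 for all genes. Higher by 1 were Ly6a (2.38), Areg (1.4) and the milk protein gene Lalba (1.08 to 5.13 FPKM, 1.56). The estrogen receptor gene Esr1 was listed at 3.62 FPKM in control and 1.87 FPKM in SP colonies (-0.69), the progesterone receptor gene Pgr at 5.02 and 3.36 (-0.47), Foxa1 at 15.2 and 8.32 (-0.80) and Cited1 at 37.3 and 13.0 (-1.45). Kit (23.3 and 20.5, -0.18) and Krt19 (211 and 209, -0.02) were within 0.3. Milk protein genes went both ways, with 4 of 8 higher, 3 lower and a median of 0.51 that became 0.18 without the filter and 0.032 at a mean of at least 5 FPKM. The casein gene Csn1s1 (30.8 to 89.8 FPKM, 1.52) was higher, and Spp1, osteopontin, was lower (2495 to 1603, -0.64), as was Mfge8 (521 to 282, -0.88).

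Interstitial matrix genes were lower in SP colonies. Of 40 interstitial collagens and fibroblast markers, 28 were compared, 17 were lower by 0.3 and 4 higher, 8 were lower by 1 and 1 higher, and the median was -0.47, or -0.28 without the filter. The list summed to 3549 FPKM in control colonies, 1808 in SP colonies, 2199 in sorted control and 2418 in sorted 6OHDA basal cells. Postn (periostin), its most abundant gene in each library, was listed at 2376 FPKM in control and 1004 FPKM in SP colonies (-1.24). Among the defining fibroblast markers, Pdgfra was listed at 9.95 and 5.32 FPKM, Col1a1 at 4.35 and 1.71, and Dcn (decorin) at 1.52 and 1.11. In sorted control basal cells Dcn was higher than in the colonies, at 115 FPKM, whereas Pdgfra (2.62 FPKM) and Postn (702 FPKM) were lower than in both colony libraries. Col14a1 (97.6 to 29.7, -1.68), Col1a2 (20.6 to 3.94, -2.13) and Col6a3 (4.40 to 1.16, -1.32) were lower, and Fbln1 was higher (5.72 to 15.1, 1.26). The part of fibroblast RNA in these differences was not tested.

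Cartilage-associated genes were lower too, 8 of 12 by 0.3 and 5 by 1, with 1 higher and a median of -0.70, which ranged from -1.42 to -0.37 over the settings tried. Col9a3, a collagen of cartilage, was listed at 396 FPKM in control and 148 FPKM in SP colonies (-1.42), Matn4 at 190.1 and 64.5 (-1.55), Cnmd (chondromodulin) at 54.2 and 11.2 (-2.18) and Col2a1 at 6.64 and 2.24 (-1.24). Sorted control basal cells also had Col9a3, at 55.8 FPKM, and Matn4, at 38.5 FPKM. Matrix-remodelling genes had 7 of 26 higher and 12 lower (median -0.13). Plaur, the urokinase receptor gene (8.23 to 18.3 FPKM, 1.07), Serpinb2 (1.59) and the membrane protease gene Adam8 (7.25 to 23.1 FPKM, 1.54) were higher, and Serpine2 (117 to 65.9, -0.82) and Mmp11 (-0.77) lower.

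Of the adipocyte markers that reached the filter, most were lower. Fabp4, the fatty acid carrier of fat cells and capillaries, had the largest difference downward of all genes with a mean of at least 5 FPKM (34.4 to 1.05 FPKM, -4.11). The adipocyte-defining genes Adipoq (adiponectin, 1.66 to 0.06 FPKM) and Plin1 (perilipin, 1.23 to 0 FPKM) were at low levels in control colonies and at or near 0 in SP colonies, as was Cd36 (2.42 to 0.07 FPKM), and Lpl (lipoprotein lipase) went from 4.98 to 0.54 FPKM. Adipoq and Plin1 did not reach the filter, and Cd36 and Lpl passed it only through control colonies, where they were high. Of 21 markers in the files, 10 were compared, 6 were lower and 2 higher, and the median was -0.44, or -0.28 with a pseudocount of 5. The list summed to 264 FPKM in control colonies, 250.2 in SP colonies, 347 in sorted control and 526 in sorted 6OHDA basal cells. In the colonies its most abundant gene was Scd1 (153 and 196 FPKM), which epithelial lipid synthesis also uses, and the sum without it was 111 FPKM in control and 54.5 FPKM in SP colonies. Retn was listed at 0 in both. The part of adipocyte RNA in the difference of Fabp4 was not tested.

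Most endothelial and leukocyte markers did not reach the filter in the colonies, which were grown from cells sorted with antibodies to CD31, CD45 and TER119 to leave out endothelial cells, leukocytes and red cells. Of 38 endothelial markers, 9 were compared, with a median of 0.10, 4 higher and 2 lower. The lower genes were Fabp4, which the adipocyte list also holds, and Erg (10.3 to 1.41 FPKM, -2.23). Their sum was 90.0 FPKM in control and 57.9 FPKM in SP colonies, against 1277 and 1460.0 FPKM in sorted control and sorted 6OHDA basal cells. Fabp4 (34.4 FPKM) was the most abundant in control colonies, where the sum without it was 55.6 FPKM. In SP colonies Fabp4 was at 1.05 FPKM, and Ets1 (16.3 FPKM) was the most abundant. Pecam1 was listed at 1.39 and 1.56 FPKM, Kdr at 0.03 and 0.04, Tek at 0.09 and 0.03, and Myct1, Robo4 and Tal1 at 0 in both colony libraries. Of 32 leukocyte markers, 5 were compared, 2 were higher and 0 lower (median 0.20), and 12 were listed at 0 in both colony libraries. Their sum was 118 FPKM in control and 245 FPKM in SP colonies, 179.7 in sorted control and 83.2 in sorted 6OHDA basal cells. S100a8 was the most abundant in SP colonies and Cd14 (53.1 FPKM) in control colonies. H2-Ab1, an MHC class II chain gene, was higher (22.6 to 58.1 FPKM, 1.32), while its partner chain H2-Aa (0 and 0.06 FPKM) and the invariant chain gene Cd74 (0.58 and 0.37 FPKM), named after their values were seen, were near 0. The part of leukocyte RNA in the differences of S100a8 and H2-Ab1 was not tested.

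Neural transcripts were few. The list of pericyte, Schwann cell and neuronal markers had 10 of 24 genes compared, 2 higher and 4 lower (median -0.27, mean 0.18), with sums of 225 and 227 FPKM in control and SP colonies and 404 and 383 FPKM in the sorted control and sorted 6OHDA libraries. Its most abundant gene was Mcam (133 and 114 FPKM in control and SP colonies), which basal cells express. Gap43, Kcnj8, Snap25 and Th, the rate-limiting enzyme gene of catecholamine synthesis, were listed at 0 in both colony libraries. Tubb3, a neuronal tubulin gene that some dividing and transformed epithelia also express, was higher (0.86 to 26.7 FPKM, 3.90), as was the microtubule regulator gene Stmn2 (8.36 to 24.1 FPKM, 1.42). The glial calcium-binding gene S100b (3.82 to 1.09 FPKM, -1.21) and the myelin genes Ncmap (3.09 to 1.53, -0.69) and Mbp (12.9 to 8.67, -0.53) were lower.

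The remaining lists had medians within 0.3, although single members stood out. Their counts stand beside 11.7% higher and 19.8% lower among all genes compared. Transcription factors of the basal lineage had 5 of 24 higher and 7 lower (median -0.17), with Trp63 (0.79) higher and Bcl11a, a regulator of mammary progenitors, lower (7.67 to 2.60 FPKM, -1.27). The list of EMT factors and cadherins had 3 of 13 higher and 5 lower (median -0.14), and its mesenchymal cadherin genes Cdh2 (-0.52) and Cdh11 (-0.93) were lower. In the angiogenic list 5 of 25 were higher and 8 lower (median -0.14), so Vegfa stood apart from most other members. MHC class I genes had 0 of 19 higher and 4 lower (median -0.09), including the peptide-loading gene Tapbp (-0.41).

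Stress programmes showed no common direction either. Oxidative defense genes had 11 of 43 higher and 10 lower (median 0.02), with the glutathione transferase genes Gsta1 (2.01 to 8.11 FPKM, 1.60), Gsta2 (1.35) and Gsta4 (196 to 384 FPKM, 0.97) higher and Gstm1 (68.6 to 22.8 FPKM, -1.55), Gsta3 (-0.82) and the ferritin gene Fth1 lower (1918 to 1311 FPKM, -0.55). Genes of the unfolded protein and integrated stress responses were split evenly, 5 higher and 5 lower of 40 (median 0.03). Among them Ddit3, a death-promoting factor gene, was lower (-0.91) and the serine synthesis gene Psat1 higher (0.73). The p53 targets were even as well, with 3 higher and 3 lower of 26 (median -0.03). Heat shock genes had 4 of 18 higher and 1 lower (median 0.11). Their largest differences upward were those of Hspa4l (20.5 to 32.8 FPKM, 0.65) and Hspb1 (274 to 413 FPKM, 0.59). Autophagy genes had 3 of 29 higher and 5 lower (median -0.16), shares close to the 11.7% and 19.8% of all genes, with the mitophagy kinase gene Pink1 (-0.55) lower and Bnip3 (3.02) higher.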

How the data were processed

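The FPKM values were taken as the authors deposited them, with 2 decimals and no read counts in the files used. The submitters' processing notes name Bowtie2, RSEM 1.3.1, DESeq2 1.4.5 and mm10, without the role of each, the annotation or any filter. Differences are log2(FPKM + 1), SP minus control colonies, over 11849 genes with a mean of at least 1 FPKM. RefSeq GRCm38.p6 gave a symbol to 17512 of 17630 genes. The thresholds, the 60 gene lists and their members were chosen with earlier results of these data known. Named genes are the 20 highest and 20 lowest differences at a mean of at least 5 FPKM, in each list the 5 largest differences and the 2 most abundant genes, every HIF regulator, adrenergic receptor, protein C pathway gene and basal marker, the markers of other cell types, and Procr, Mki67, Krt14, Krt8, Adra1d, Map2k1, Map2k2 and Mapk3. Others are said to be chosen later. Some genes that the rule names are not reported here. The code, tested on simulated data, used Python 3.11.15, numpy 2.4.6, pandas 2.3.3 and matplotlib 3.10.9.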

Additional observations from a re-analysis of the deposited data

How the results depend on the processing

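The comparison was repeated with a pseudocount of 0.1 and of 5, with no filter, with a mean of at least 5 FPKM, with values rescaled to the same sum, with median-ratio scaling, with quantile normalization, and for lists with the mean in place of the median. Rescaling to the same sum without the keratin genes was added after seeing the data. No paired analysis was possible because each group has 1 library, and leaving out a replicate was not possible for the same reason. No list median past 0.3 changed direction. No named gene past 0.3 did either, but only quantile normalization could have turned such a gene. A pseudocount or a filter cannot change the sign of a single gene. Scaling by a single factor a library moved the median over all genes by at most 0.07 in size. Of 60 list medians, 40 moved by less than 0.15 under all of these settings, and of 382 named genes 229 did; none of the 4 scalings moved a list median by more, and quantile normalization moved 12 named genes. Of 17 list medians past 0.3, 7 came within it under at least 1 setting (G1/S, keratins, antimicrobial, milk, fibroblast, adipocyte and complement), and of 305 named genes past 0.3, 30 did, 19 of them with the pseudocount of 5. Of 43 medians within 0.3, 14 lay on the other side of 0 under at least 1 setting, so those 14 have no settled direction. Some of the 43 went past 0.3 under at least 1 setting. Upward these were the cytokine (to 0.52), leukocyte (0.76), HIF regulator (0.37) and contractile (0.32) lists. Downward they were the chemokine (to -0.31), clock (-0.39), adrenergic receptor (-0.38) and endothelial (-0.47) lists. The pseudocount of 0.1 gave 287 genes lower by 1 and medians of 1.66 for the cornified list and -0.58 for complement. The pseudocount of 5, which shrinks differences at low levels by construction, gave 1276 genes lower by 0.3, 112 higher and 60 lower by 1, and medians of 0.32 (hypoxia), 0.78 (cornified), 0.46 (keratins), 0.41 (antimicrobial), -0.28 (adipocyte), -0.47 (cartilage) and -0.12 (complement). Without a filter the medians were 0.72 (cornified), 0.17 (keratins), 0.38 (antimicrobial), 0.18 (milk), -0.28 (fibroblast) and -0.37 (cartilage), with genes near 0 included. A mean of at least 5 FPKM tests fewer genes, leaves no adrenergic receptor, and gave 103 lower by 1, with medians of 1.07 (glycolysis), 0.29 (antimicrobial), 0.032 (milk), -1.42 (cartilage) and -0.095 (complement). Means in place of medians were 0.73 (hypoxia), 0.86 (antimicrobial) and -0.83 (adipocyte). The endothelial median of 0.10 became a mean of -0.47, and the leukocyte median of 0.20 a mean of 0.72. Genes named after their values were seen were repeated only under the scalings. Beyond these constructions the cause was not tested. At the estimated depth, values well below 1 FPKM rest on few fragments.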
